A study of Mus musculus with 14 samples.

Results

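The genes described here are the collagens and the laminin chains of the mouse cerebral cortex. They were taken from the deposited expression table by symbol, as every gene written Col, number, a, number, and every Lama, Lamb or Lamc gene numbered up to 5. That rule uses no measured value and found 55 of the 32830 genes in the table. They fall into 11 fibrillar collagens, 8 basement membrane collagens, 25 other collagens and 11 laminin chains. The mice were of the SW strain, carried the Aldh1l1-GFP reporter and were taken on postnatal day 14. Aldh1l1 is a gene of astrocytes, so the reporter makes these cells fluoresce green. The upper and the deep layers of the cortex were dissected apart by hand, and each gave 3 kinds of sample: GFP-positive cells sorted after papain digestion (astrocytes, 3 libraries a layer), the GFP-negative cells of the same kind of sort (non-astrocytes, 2 libraries a layer) and tissue that was not dissociated (bulk tissue, 2 libraries a layer). The 14 libraries thus make 6 groups, and all 6 share the strain, the reporter and the age. For the upper layer astrocytes and non-astrocytes a second label field reads bulk tissue, against their titles, and the titles were followed. Nothing in the labels ties the libraries of a group to different animals. The spread that enters the p-values is that among these libraries and may be technical.

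Collagens are secreted proteins of 3 chains wound into a triple helix. Fibrillar collagens assemble into the fibres of connective tissue, whereas type IV collagen forms a sheet that, with the laminins, is the core of every basement membrane. A laminin is a cross-shaped molecule made of an alpha, a beta and a gamma chain, and the alpha chain carries the binding sites for cell surface receptors. In the brain, basement membranes lie around blood vessels and beneath the meninges. Endothelial cells, pericytes, smooth muscle cells and fibroblasts lay them down on the vessel side, and astrocytes lay them down where their endfeet meet the vessel.

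Positions are on GRCm38, from the GENCODE M21 annotation. Values are normalised read counts, that is, reads in a gene divided by the size factor of the library, and errors beside means are SD over libraries. Libraries held 18226457 to 30316765 reads in genes. The sort was checked with marker genes that include no collagen or laminin. The summed level of 10 astrocyte markers ran from 1014229 to 1498321 in the astrocyte libraries and from 28118 to 35474 in the non-astrocyte libraries. Astrocytes kept 2.36% of the non-astrocyte sum for 12 endothelial markers, 2.61% for 10 mural markers (pericytes and smooth muscle), 7.29% for 10 fibroblast markers and 1.04% for 10 microglial markers. Relative to bulk tissue, the non-astrocyte libraries held 8.13 times the endothelial, 27.9 times the mural and 9.15 times the fibroblast markers. Their neuronal markers were at 0.0473 times the bulk level. The first upper layer non-astrocyte library listed 30333 genes above 0, against 23671 to 26356 in the other 13.

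As a family, collagen and laminin genes were highest in the sorted non-astrocytes. The summed level of all 55 genes ran from 11176 to 16384 in astrocytes, from 12089 to 14963 in bulk tissue and from 70400.3 to 131073 in non-astrocytes. The non-astrocyte libraries stood above all others, while astrocytes and bulk tissue overlapped. The sums of 2 classes did not overlap between astrocytes and bulk tissue, in opposite directions. Laminin chains summed to 5326 to 8806 in astrocytes, above the 4009.8 to 4419 of bulk tissue, and basement membrane collagens to 1373 to 2317, below 2768 to 3134. Such a sum rests mostly on its highest genes. By the test described below, 3 of 11 laminin chains were higher in astrocytes than in bulk tissue and 6 lower (median log2 -1.83). For basement membrane collagens these were 3 and 4 of 8 (median log2 -0.52), beside 28.8% higher and 36.1% lower among all genes tested. In bulk tissue, fewer cells of a type and less RNA in each cell cannot be told apart. Of the 55 genes, 54 reached a value of 10 in at least 2 libraries and were tested. The one that did not was Col2a1, the collagen of cartilage, with 0 to 18.0 in the 14 libraries. Differences are log2 differences from limma, fitted over 22575 genes, and a gene was called at a Benjamini-Hochberg adjusted p below 0.05.

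Astrocytes were compared with non-astrocytes over both layers. Limma called 40 of the 54 genes lower in astrocytes, 2 higher and 12 neither way. Among all genes tested 36.8% were called lower and 29.6% higher. The median log2 difference of the 54 genes was -2.74, beside -0.08 for all genes tested. The genes called lower were 7 of 8 basement membrane collagens, 8 of 10 fibrillar collagens, 16 of 25 other collagens and 9 of 11 laminin chains. The size of the deficit varied widely between genes. Astrocytes held less than 5% of the non-astrocyte mean for 14 of the 55 genes and at least 50% for 18. Their level ran from 0.551% for Col3a1 to 334% for Col8a2, a gene with at most 13.0 in any library.

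**Figure D1:**
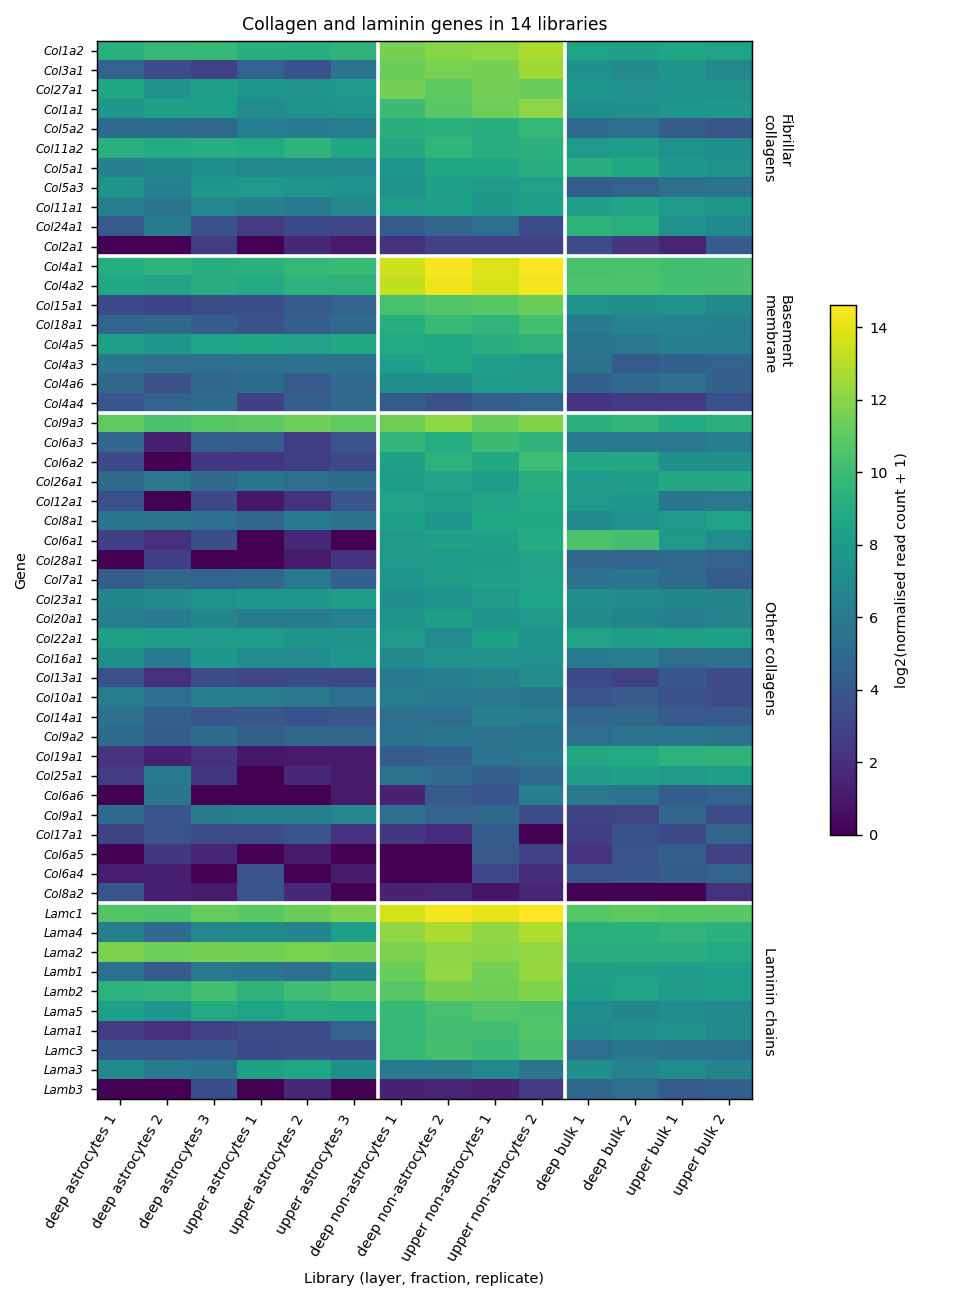
Normalised read counts of 54 of the 55 genes on a log2 colour scale (value + 1), with the 14 libraries in columns grouped by fraction and the genes in rows grouped by class and ordered by their mean in non-astrocytes. The 4 non-astrocyte columns are the brightest for Col4a1, Col4a2, Lamc1 and Col1a2, while Lama2 and Col9a3 are bright in the astrocyte columns as well.

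**Figure D2:**
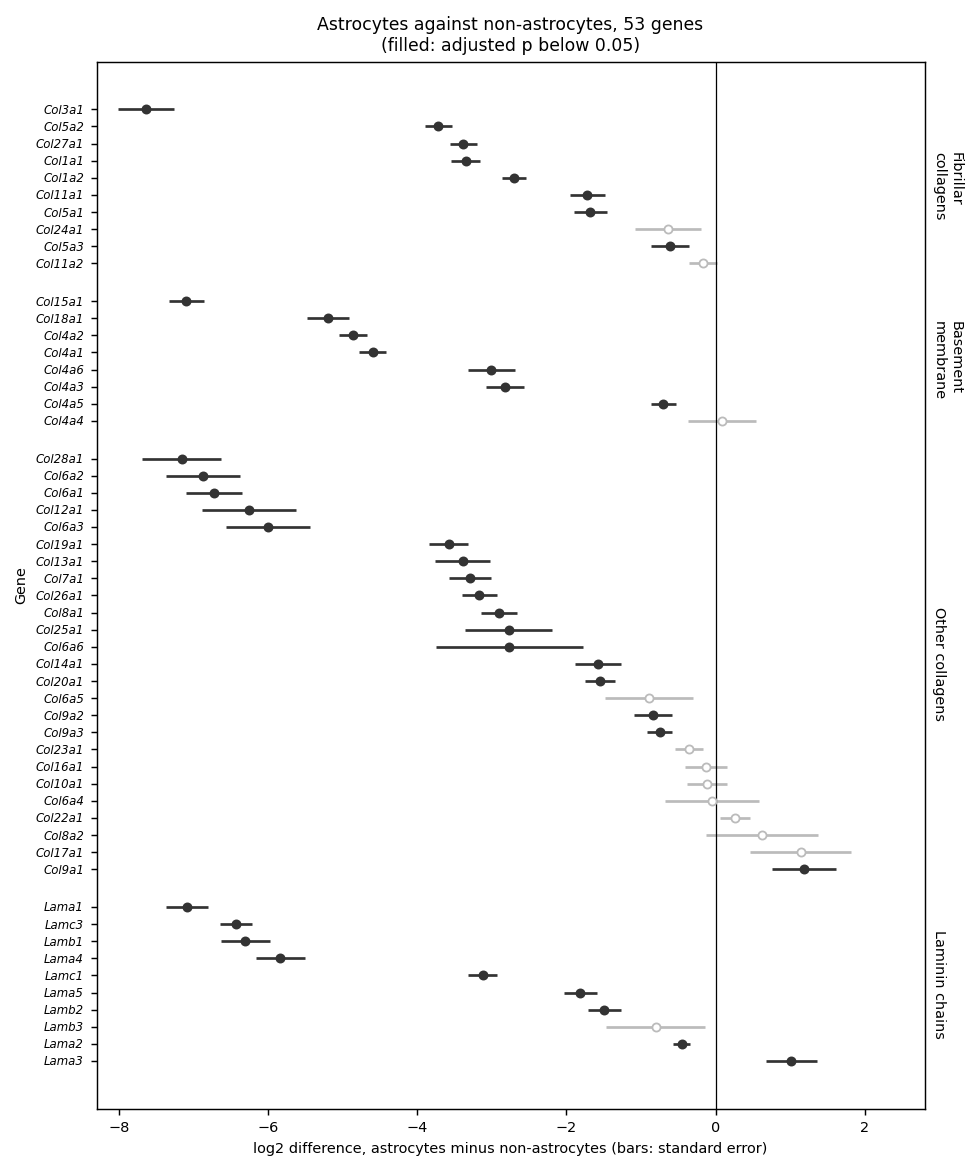
Log2 difference between astrocytes and non-astrocytes for 53 of the 54 genes tested, by class, with the standard error as a bar and filled points for genes called. Points run from -7.64 for Col3a1 to 1.18 for Col9a1, and 2 filled points, Col9a1 and Lama3, lie right of 0.

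Type IV collagen is the sheet-forming collagen of basement membranes, and its 6 genes lie in 3 pairs that point away from each other. Col4a1 and Col4a2, whose chains make up the common form found in vessels, had the highest levels of the family per kilobase of exon in non-astrocytes, 2373 ± 726 and 2366 ± 758 (SD, n = 4), with Lamc1 next at 2314 ± 629. In astrocytes Col4a1 measured 520.5, 708 and 573 in deep layers and 642, 892 and 999.5 in upper layers. Non-astrocytes held 11797 and 21389 in deep and 14519.7 and 23137 in upper layers. Bulk tissue held 1322 and 1379 in deep and 1145 and 1199 in upper layers. No astrocyte library reached any bulk library, and no bulk library reached any non-astrocyte library. Col4a1 was 24.2-fold lower in astrocytes than in non-astrocytes (log2 -4.60, SE 0.184, adjusted p = 9.33e-12) and 1.79-fold lower than in bulk tissue (adjusted p = 0.000942). Within a layer, the second non-astrocyte library held more Col4a1 than the first in both layers. Col4a2 measured 414, 363 and 546 in deep and 488, 681 and 689 in upper layer astrocytes. It measured 9736 and 18958 in deep and 13352 and 20589 in upper layer non-astrocytes, and 1422 and 1405 in deep and 1225 and 1267 in upper layer bulk tissue. Its order across the fractions was that of Col4a1, with a log2 difference of -4.86 (SE 0.19, adjusted p = 7.3e-12) between astrocytes and non-astrocytes.

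The other 4 type IV genes lay far below this pair in non-astrocytes and did not move alike. Col4a5, whose mutation causes the kidney disease Alport syndrome, measured 309, 219.9 and 358 in deep and 383, 343 and 468 in upper layer astrocytes. Non-astrocytes held 494 and 436 in deep and 602 and 714 in upper layers, and bulk tissue 48.2 and 54.5 in deep and 75.6 and 76.1 in upper layers. Both sorted fractions lay above every bulk library, and the highest astrocyte library lay above the lowest non-astrocyte library. The astrocyte level was 5.36-fold that of bulk tissue (adjusted p = 3.69e-09) and 61.8% of the non-astrocyte mean (log2 -0.70, SE 0.164, adjusted p = 0.00147). Col4a6, its neighbour, was at 25.1 ± 9.25 (SD, n = 6) in astrocytes against 201 ± 52.9 (SD, n = 4) in non-astrocytes, a log2 difference of -3.01 (SE 0.317). Col4a3 was at 43.3 ± 5.78 (SD, n = 6) against 316 ± 70.9 (SD, n = 4), a log2 difference of -2.82 (SE 0.254). Col4a4, the neighbour of Col4a3, was at 21.9 ± 10.9 (SD, n = 6) against 18.6 ± 5.64 (SD, n = 4) and did not pass the test (log2 0.09, SE 0.454, adjusted p = 0.873). Per kilobase of exon, the Col4a5 level was 0.552 ± 0.144 of the Col4a1 level in astrocytes, 0.0374 ± 0.0113 in non-astrocytes and 0.0571 ± 0.0173 in bulk tissue (SD). The lowest astrocyte library, at a ratio of 0.345, lay above the highest other library, at 0.0734 (exact permutation p = 0.00952 against non-astrocytes, adjusted p = 0.0171). This test was added after the values had been seen.

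**Figure D3:**
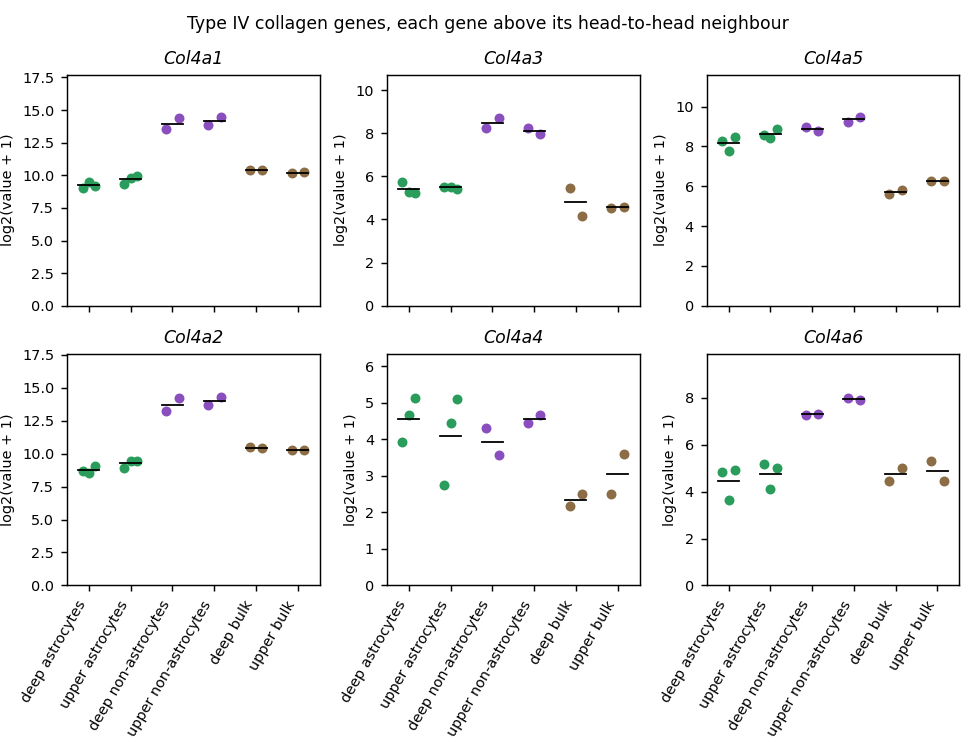
Log2(normalised read count + 1) of the 6 type IV collagen genes in the 6 groups, with a point for each library and a line at the group mean, and each gene drawn above the neighbour it points away from. Col4a1 and Col4a2 share their pattern, Col4a5 stays high in astrocytes while Col4a6 falls there with a log2 difference of -3.01, and Col4a4 lies lowest of the set in every non-astrocyte and bulk library.

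The stretches between the starts of these paired genes are shown because the pairs differed in whether their members moved together. Sequences are from RefSeq's GRCm38.p6 promoter windows, gene starts are those of GENCODE M21 (GRCm38), and capitals mark a match on either strand to GGGCGG (a GC box), CCAAT or TATAAA. Col4a2 (chr8:11312805-11449287, plus strand) and Col4a1 (chr8:11198423-11312826, minus strand) overlap by 22 bases at their starts, and the overlap on the plus strand, chr8:11312805-11312826, reads as follows.
Col4a2 and Col4a1 overlap: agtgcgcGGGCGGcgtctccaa
Col4a3 (chr1:82586921-82722059, plus strand) and Col4a4 (chr1:82448423-82586849, minus strand) start 71 bases apart, and the gap on the plus strand, chr1:82586850-82586920, has none of the 3 motifs.
Col4a3 and Col4a4 gap: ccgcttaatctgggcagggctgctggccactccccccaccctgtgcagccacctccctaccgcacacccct
Col4a5 (chrX:141475385-141689234, plus strand) and Col4a6 (chrX:141165403-141474076, minus strand) start 1308 bases apart. The 120 bases before each start are given 5′ to 3′ on the strand of the gene, from chrX:141475265-141475384 (plus) for Col4a5 and chrX:141474077-141474196 (minus) for Col4a6.
Col4a5: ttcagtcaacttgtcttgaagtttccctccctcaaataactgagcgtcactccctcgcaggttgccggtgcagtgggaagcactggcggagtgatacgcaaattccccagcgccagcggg
Col4a6: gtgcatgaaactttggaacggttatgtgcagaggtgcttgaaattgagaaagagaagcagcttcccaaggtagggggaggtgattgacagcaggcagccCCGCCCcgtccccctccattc
The shared start of Col4a1 and Col4a2 and the stretch before Col4a6 each hold a GC box, while the Col4a3 and Col4a4 gap and the stretch before Col4a5 hold no match. Over the longer RefSeq windows, 250 bases before to 50 after a start, GGGCGG on either strand was present for 35.7% of 32851 windows of 300 bases, CCAAT for 37.4% and TATAAA for 13.6%. Of the 40 collagen and laminin genes with a window, 25 held the GC box, 14 CCAAT and 5 TATAAA. Here a gene counted if any of its windows held the motif, so these counts are not on the scale of the shares of windows. Windows of Col4a1, Col4a2, Col4a5 and Col4a6 held a GC box and that of Col4a4 did not. These matches describe the sequence only. The sources used here do not say whether counting used strand, so how reads in the 22 shared bases of Col4a1 and Col4a2 were counted is not known.

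Types XV and XVIII are basement membrane collagens that carry sugar side chains, and both release fragments that act on vessel growth. Col15a1 measured 8.26, 7.09 and 10.6 in deep and 10.5, 17.4 and 24.2 in upper layer astrocytes. Non-astrocytes held 1288 and 1568 in deep and 1871 and 2564 in upper layers, and bulk tissue held 175 and 152 in deep and 164 and 120.2 in upper layers. The fractions did not overlap, and astrocytes held 0.714% of the non-astrocyte mean (log2 -7.09, SE 0.23, adjusted p = 1.07e-12). Col18a1 measured 26.0, 29.8 and 18.0 in deep and 11.5, 19.6 and 30.9 in upper layer astrocytes, 554 and 918 in deep and 736 and 1227 in upper layer non-astrocytes, and 63.4 and 90.5 in deep and 94.0 and 84.1 in upper layer bulk tissue. It too was ordered astrocytes, bulk tissue, non-astrocytes without overlap, with 2.63% of the non-astrocyte mean left in astrocytes (log2 -5.20, SE 0.279).

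Among fibrillar collagens, astrocytes held from 0.551% of the non-astrocyte mean for Col3a1 to 89.0% for Col11a2. Col3a1 (chr1:45311538-45349706, plus strand), the type III collagen of vessel walls and loose connective tissue, measured 23.6, 9.93 and 6.34 in deep and 22.9, 11.99 and 47.4 in upper layer astrocytes. Non-astrocytes held 2545 and 3241 in deep and 3169 and 5824 in upper layers, and bulk tissue held 159 and 126 in deep and 186 and 106 in upper layers. Every astrocyte library lay below every bulk library, and the difference from non-astrocytes was the largest of the family (log2 -7.64, SE 0.375, adjusted p = 1.38e-10). The 2 chains of type I collagen, the main collagen of bone and skin, kept more. Col1a1 measured 219.5, 325 and 301 in deep and 129.9, 170.03 and 193 in upper layer astrocytes, 1048 and 1886 in deep and 2688 and 4243 in upper layer non-astrocytes, and 153 and 163 in deep and 203 and 220.4 in upper layer bulk tissue. Astrocytes overlapped bulk tissue here and lay below all non-astrocytes (log2 -3.35, SE 0.195, adjusted p = 6.33e-10). Col1a2 measured 616, 847 and 872 in deep and 596, 552 and 735 in upper layer astrocytes, 3127 and 4189 in deep and 4498 and 7020.5 in upper layer non-astrocytes, and 334 and 324 in deep and 392 and 337 in upper layer bulk tissue. For this chain astrocytes stood above all bulk libraries, by 2.00-fold (adjusted p = 4.51e-05), and below all non-astrocytes (log2 -2.70, SE 0.157).

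Type V collagen, which joins type I fibres and sets their width, behaved differently chain by chain. Col5a2 (chr1:45374321-45503282, minus strand) measured 34.2, 35.5 and 31.7 in deep and 79.2, 66.5 and 69.4 in upper layer astrocytes, 589.9 and 641 in deep and 583 and 857 in upper layer non-astrocytes, and 34.1 and 38.8 in deep and 18.4 and 14.0 in upper layer bulk tissue. Non-astrocytes stood clear of all other libraries (log2 -3.72, SE 0.186, adjusted p = 1.1e-10). Col5a3 measured 189, 83.7 and 204 in deep and 229, 201 and 177 in upper layer astrocytes, 176 and 323 in deep and 258 and 335 in upper layer non-astrocytes, and 18.8 and 24.9 in deep and 43.3 and 47.1 in upper layer bulk tissue. Both sorted fractions lay above bulk tissue and overlapped each other. Against non-astrocytes the Col5a3 log2 difference of -0.61 (SE 0.258) only just passed the test (adjusted p = 0.0475), and this call was lost in 18 alternative settings, including edgeR and the fits without any 1 of 11 libraries. Col27a1, a fibrillar collagen of cartilage, measured 389, 190.1 and 307 in deep and 208, 195 and 231 in upper layer astrocytes, 2966 and 2002 in deep and 2950.5 and 2438 in upper layer non-astrocytes, and 207 and 164 in deep and 182 and 183 in upper layer bulk tissue. It was 10.4-fold lower in astrocytes than in non-astrocytes (log2 -3.38, SE 0.187, adjusted p = 3.43e-10). Col11a2, a chain of the type XI collagen of cartilage, was at 546 ± 116 (SD, n = 6) in astrocytes and 613 ± 134 (SD, n = 4) in non-astrocytes, which did not pass the test (adjusted p = 0.441). In bulk tissue it was at 207 ± 57.7 (SD, n = 4), and both sorted fractions were higher, by 2.65-fold and 2.98-fold. Col5a1 and Col11a1 were lower in astrocytes than in non-astrocytes, with log2 differences of -1.68 and -1.72.

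Col24a1, a fibrillar collagen, had its highest levels in bulk tissue. It measured 729.6 and 613 in deep and 163 and 127 in upper layer bulk tissue, 17.8 and 26.4 in deep and 37.6 and 9.87 in upper layer non-astrocytes, and 16.5, 65.2 and 11.6 in deep and 4.77, 8.72 and 7.71 in upper layer astrocytes. No sorted library reached any bulk library (log2 -4.49, SE 0.442, adjusted p = 2.93e-07 for astrocytes and log2 -3.85, SE 0.484, adjusted p = 5.45e-06 for non-astrocytes, each minus bulk tissue). Col19a1, Col25a1, Col6a4, Col6a5 and Lamb3 were also lower in both sorted fractions than in bulk tissue. The Col6a5 call against non-astrocytes was lost in 13 alternatives, and its non-astrocyte libraries, from 0 to 16.1, overlapped those of bulk tissue, from 3.52 to 20.3. Col19a1, a collagen that associates with fibre surfaces, had the largest log2 difference of these genes in both fractions. It measured 472 and 488 in deep and 700.4 and 719 in upper layer bulk tissue, 17.8 and 20.9 in deep and 45.3 and 56.5 in upper layer non-astrocytes, and 3.54, 1.42 and 3.17 in deep and 0.955, 1.09 and 1.1 in upper layer astrocytes. The 3 fractions did not overlap, and the bulk level exceeded that of non-astrocytes by 18.1-fold (log2 -4.17, SE 0.291, adjusted p = 8.23e-09). Col25a1, a membrane-bound collagen known from amyloid plaques, was at 281 ± 44.7 (SD, n = 4) in bulk tissue, 33.1 ± 10.5 (SD, n = 4) in non-astrocytes and 12.2 ± 24.0 (SD, n = 6) in astrocytes. The 10 neuronal markers moved the same way, with sums of 148099.5 to 196177 in bulk tissue, 4902 to 10765 in non-astrocytes and 691 to 881 in astrocytes. Their part in these results was not tested. The second deep layer astrocyte library held more Col24a1 and Col25a1 than the other astrocyte libraries, at 65.2 and 61.0, and likewise Col6a6, at 52.5 against at most 1.10.

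Type VI collagen forms beaded filaments next to basement membranes, from 3 different chains. Its 3 main genes were close to 0 in astrocytes. Col6a1 (chr10:76708792-76726168, minus strand) measured 5.9, 2.84 and 10.6 in deep and 0, 2.18 and 0 in upper layer astrocytes, 231 and 321 in deep and 328 and 505 in upper layer non-astrocytes, and 1484 and 1219 in deep and 228 and 131 in upper layer bulk tissue. Astrocytes lay below every other library (log2 -6.73, SE 0.378, adjusted p = 4.14e-10 against non-astrocytes), and bulk tissue held the 2 highest values. Col6a2 measured 8.26, 0 and 4.23 in deep and 3.82, 5.45 and 8.82 in upper layer astrocytes, 332 and 701 in deep and 461 and 1064 in upper layer non-astrocytes, and 451 and 443 in deep and 157 and 161 in upper layer bulk tissue. Col6a3 measured 28.3, 1.42 and 20.1 in deep and 20.1, 5.45 and 12.1 in upper layer astrocytes, 810.05 and 536 in deep and 1011 and 726 in upper layer non-astrocytes, and 61.1 and 59.1 in deep and 54.4 and 75.1 in upper layer bulk tissue. For both, astrocytes were below all other libraries, at 0.797% of the non-astrocyte mean for Col6a2 (log2 -6.88, SE 0.496) and 1.89% for Col6a3 (adjusted p = 2.9e-07). The chains differed in how bulk tissue compared with non-astrocytes: Col6a3 was 11.9-fold higher in non-astrocytes (adjusted p = 0.000158), while Col6a1 (log2 -0.53, SE 0.414, adjusted p = 0.279) and Col6a2 (log2 1.12, SE 0.544, adjusted p = 0.0871) did not pass. Col28a1, a type VI-like collagen of basement membranes around glia of nerves, measured 0, 5.67 and 0 in deep and 0, 1.09 and 3.31 in upper layer astrocytes, 235 and 270.1 in deep and 289 and 345 in upper layer non-astrocytes, and 29.4 and 25.9 in deep and 30.4 and 23.0 in upper layer bulk tissue. The fractions did not overlap (log2 -7.16, SE 0.525, adjusted p = 9.08e-09). Col12a1, which coats type I fibres, was at 6.09 ± 5.45 (SD, n = 6) in astrocytes and 375 ± 74.1 (SD, n = 4) in non-astrocytes (log2 -6.26, SE 0.631).

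Type IX collagen, a short collagen that sits on cartilage fibrils, included the 2 genes of the family that stood out in astrocytes by level and by difference. Col9a3 (chr2:180597790-180622189, plus strand) measured 2070.1, 1359 and 1732 in deep and 1952, 2627 and 2073 in upper layer astrocytes, 2777 and 4396 in deep and 2504 and 3635 in upper layer non-astrocytes, and 652 and 787 in deep and 507 and 611 in upper layer bulk tissue. Every sorted library lay above every bulk library, and 1 astrocyte library reached into the range of the non-astrocytes. Per kilobase of exon, Col9a3 had the highest astrocyte level of all 55 genes, 511 ± 109, ahead of Lamc1 at 268 ± 88.3, Lama2 at 183 ± 17.4 and Lamb2 at 164 ± 54.4 (SD, n = 6). Its astrocyte level was 3.05-fold that of bulk tissue (adjusted p = 6.13e-07) and 59.2% of the non-astrocyte mean (log2 -0.75, SE 0.169, adjusted p = 0.00111). Exons of Col9a3 overlap those of Tcfl5 on the other strand, so reads of the 2 genes may not be told apart there. Col9a1 was 1 of the 2 genes higher in astrocytes than in non-astrocytes (chr1:24177610-24252684, plus strand). It measured 33.0, 14.2 and 62.4 in deep and 78.3, 74.1 and 107 in upper layer astrocytes, 38.8 and 22.7 in deep and 26.9 and 9.87 in upper layer non-astrocytes, and 7.05 and 7.39 in deep and 27.6 and 9.01 in upper layer bulk tissue. Deep layer astrocytes overlapped non-astrocytes and upper layer astrocytes did not. The difference was 1.18 (SE 0.428, adjusted p = 0.0238), and the call was lost without the second non-astrocyte library of either layer or the third astrocyte library of either layer. Col9a2 went the other way, from 47.1 ± 4.21 (SD, n = 4) in non-astrocytes to 26.5 ± 6.45 (SD, n = 6) in astrocytes (log2 -0.84, SE 0.252, adjusted p = 0.00861).

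Several smaller collagens had means in astrocytes close to those in non-astrocytes and were not called between them. Col10a1, the network collagen of growing cartilage, was at 57.0 ± 16.5 (SD, n = 6) in astrocytes and 60.2 ± 9.05 (SD, n = 4) in non-astrocytes, against 13.1 ± 3.19 (SD, n = 4) in bulk tissue. Col16a1, which links fibrils to other matrix, was at 153 ± 57.8 (SD, n = 6) and 157 ± 21.9 (SD, n = 4), against 53.0 ± 16.4 (SD, n = 4) in bulk tissue. Col23a1, a membrane-bound collagen, was at 183 ± 65.5 (SD, n = 6) and 232 ± 86.9 (SD, n = 4), against 119.7 ± 24.6 (SD, n = 4) in bulk tissue. All 3 were called higher in both sorted fractions than in bulk tissue, with log2 differences of 2.01, 1.46 and 0.55 for astrocytes minus bulk tissue. The Col23a1 call was lost without the second bulk library of either layer. Exons of Col10a1 overlap those of Nt5dc1 on the other strand, so part of the reads given to Col10a1 may belong to Nt5dc1. Col7a1, Col8a1, Col13a1, Col14a1, Col20a1 and Col26a1 were lower in astrocytes than in non-astrocytes, with log2 differences from -1.55 (Col20a1) to -3.39 (Col13a1).

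Laminin chains differed widely in how much of each the astrocytes held. Lama2 (chr10:26980036-27619758, minus strand), the alpha chain of muscle and endfoot laminin whose loss causes a congenital muscular dystrophy, had the highest astrocyte level of the 5 alpha chains per kilobase of exon. It measured 3399, 2706 and 3080.1 in deep and 2835, 3211 and 2719 in upper layer astrocytes, 3398 and 4246 in deep and 4031 and 4821 in upper layer non-astrocytes, and 549 and 590.3 in deep and 554 and 481 in upper layer bulk tissue. The highest astrocyte library met the lowest non-astrocyte library, and both fractions lay above all bulk tissue. Astrocytes held 5.49-fold the bulk level (log2 2.46, SE 0.117, adjusted p = 6.01e-11) and 72.5% of the non-astrocyte mean (log2 -0.46, SE 0.117, adjusted p = 0.00289). Lama4 (chr10:38965515-39110188, plus strand), an alpha chain of endothelial laminin, was far lower in astrocytes than in both other fractions. It measured 81.4, 34.0 and 106 in deep and 119, 102 and 306 in upper layer astrocytes, 4667 and 7275 in deep and 4702 and 7415 in upper layer non-astrocytes, and 609 and 667 in deep and 769.5 and 679 in upper layer bulk tissue. No fraction overlapped another, and astrocytes held 2.08% of the non-astrocyte mean (log2 -5.83, SE 0.333, adjusted p = 1.52e-09). Lama1, the alpha chain of early basement membranes and of the meninges, measured 4.72, 2.84 and 6.34 in deep and 9.55, 9.81 and 24.2 in upper layer astrocytes, 857 and 1163 in deep and 1223 and 1681 in upper layer non-astrocytes, and 123 and 161 in deep and 179.7 and 125 in upper layer bulk tissue. It fell to 0.779% of the non-astrocyte mean in astrocytes (log2 -7.09, SE 0.283, adjusted p = 9.13e-12). Lama5, the other endothelial alpha chain, held 29.1% of the non-astrocyte mean in astrocytes, at 392 ± 129 (SD, n = 6) in astrocytes, 1347 ± 350.4 (SD, n = 4) in non-astrocytes and 129.9 ± 24.1 (SD, n = 4) in bulk tissue.

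Lama3 (chr18:12333819-12583013, plus strand), the alpha chain of epithelial laminin, was the second gene higher in astrocytes than in non-astrocytes. It measured 125, 63.8 and 48.6 in deep and 329, 409.8 and 161 in upper layer astrocytes, 63.9 and 60.9 in deep and 124 and 50.3 in upper layer non-astrocytes, and 162 and 87.8 in deep and 135 and 92.2 in upper layer bulk tissue. The first and the second upper layer astrocyte library held the highest values, the third was next to the highest bulk library, and of the deep layer astrocyte libraries the third was the lowest of all 14 while the other two lay among the remaining libraries. The difference was 1.02 (SE 0.34, adjusted p = 0.0159), and it was not called without the second upper layer non-astrocyte library. Lama3 was not called between astrocytes and bulk tissue (log2 0.31, SE 0.34, adjusted p = 0.447). Lamb3, the beta chain that pairs with it in epithelial laminin, stayed at most at 10.6 in astrocyte libraries. Without the second upper layer non-astrocyte library, neither Lama3 nor Col9a1 was called, so no gene of the family was then higher in astrocytes.

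Among beta and gamma chains, Lamb2 was kept and Lamb1 was not. Lamb1, a beta chain of vascular laminin, measured 42.5, 17.0 and 58.2 in deep and 52.5, 39.2 and 99.2 in upper layer astrocytes, 2519.96 and 4747 in deep and 2996 and 5092 in upper layer non-astrocytes, and 323 and 332 in deep and 279 and 304 in upper layer bulk tissue. The fractions did not overlap (log2 -6.31, SE 0.327, adjusted p = 2.63e-10). Lamb2, a beta chain of mature basement membranes, was at 997 ± 331 (SD, n = 6) in astrocytes, 2776 ± 769 (SD, n = 4) in non-astrocytes and 305 ± 45.9 (SD, n = 4) in bulk tissue. It was 2.82-fold lower in astrocytes than in non-astrocytes (adjusted p = 2.42e-05) and 3.15-fold higher than in bulk tissue (adjusted p = 8.97e-06). Lamc1, the gamma chain of nearly all laminins, measured 1633, 1539 and 2304 in deep and 1832, 2510.1 and 3491 in upper layer astrocytes, 13114 and 21807 in deep and 16804 and 24826 in upper layer non-astrocytes, and 1711 and 1978 in deep and 1757 and 1880.1 in upper layer bulk tissue. Astrocytes and bulk tissue overlapped, and non-astrocytes stood above both (log2 -3.13, SE 0.196, adjusted p = 1.48e-09). Lamc3, a rarer gamma chain, measured 15.3, 14.2 and 13.7 in deep and 8.59, 9.81 and 9.92 in upper layer astrocytes, 829 and 1245 in deep and 972 and 1429.8 in upper layer non-astrocytes, and 37.6 and 52.7 in deep and 43.3 and 44.1 in upper layer bulk tissue. It fell to 1.07% of the non-astrocyte mean in astrocytes, again without overlap (log2 -6.43, SE 0.211, adjusted p = 1.17e-12).

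Set per kilobase of exon, so that chains can be compared within a library, the make-up of the laminin message differed between the fractions. Lama2 made up 74.9 ± 8.14% of the alpha chain level in astrocytes, 25.4 ± 1.83% in non-astrocytes and 26.2 ± 2.2% in bulk tissue (SD). The lowest astrocyte library, at 66.1%, lay above the highest of the other libraries, at 28.9%. Lama4 made up 4.12 ± 3.05%, 49.4 ± 5.16% and 44.3 ± 3.07% in the same order. Lamb2 made up 96.8 ± 1.1% of the beta chain level in astrocytes against 54.4 ± 3.09% in non-astrocytes and 58.7 ± 1.96% in bulk tissue. For each of these 3 shares astrocytes differed from non-astrocytes and from bulk tissue with p = 0.00952 by a two-sided exact permutation test, the smallest value that 6 against 4 libraries can give (adjusted p = 0.0171 over 18 comparisons of shares and ratios). The tests were added after the values had been seen, so this p only restates the lack of overlap. In astrocytes the leading alpha and beta chains were thus Lama2 and Lamb2, whereas in non-astrocytes Lama4 led the alpha chains and Lamb1 and Lamb2 were close, at 45.6 ± 3.09% and 54.4 ± 3.09%. Taking the longest transcript in place of all exons turned that order, to 42.9% for Lamb2 in non-astrocytes, and left Lamb2 at 95.1% in astrocytes.

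**Figure D4:**
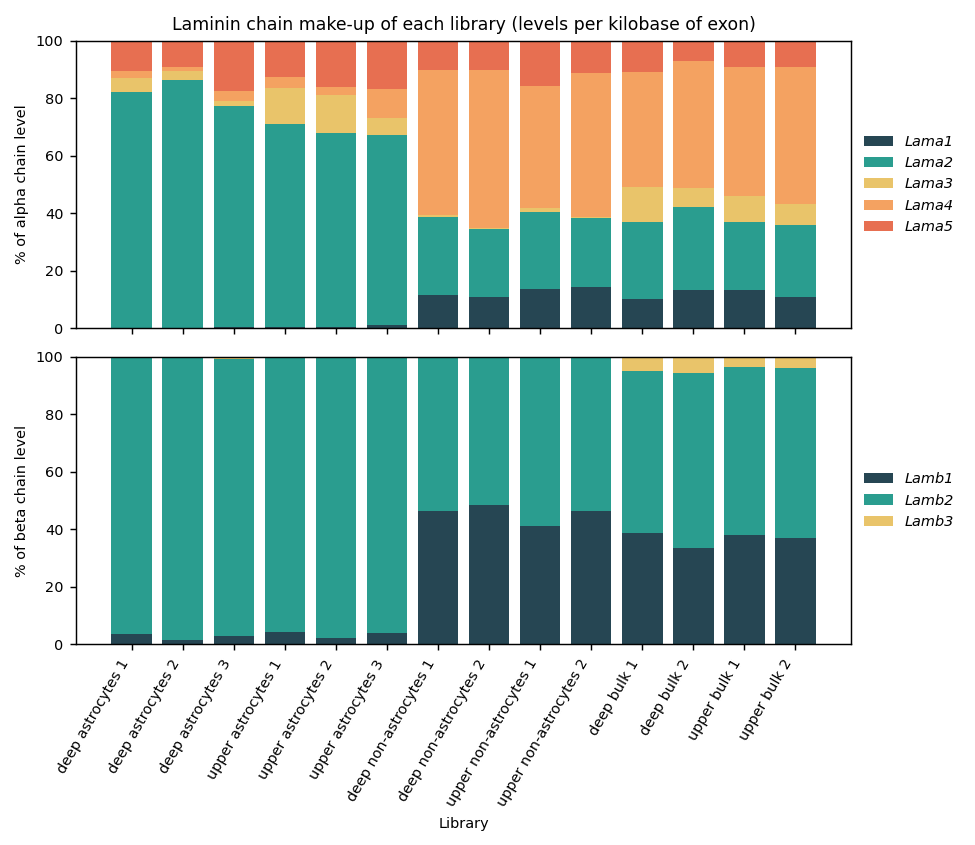
Share of each laminin chain in the summed alpha (top) and beta (bottom) chain level of each of the 14 libraries, in percent, from levels per kilobase of exon. Lama2 takes 66.1 to 86.2% of the alpha chain level in the 6 astrocyte libraries and 23.6 to 27.1% in the 4 non-astrocyte libraries, and the Lamb1 band is far thinner in the astrocyte libraries than in the other 8.

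The ratio of the type I chains was also set per kilobase, since the type I molecule holds 2 alpha 1 chains for each alpha 2 chain. Col1a2 stood to Col1a1 as 1.76 ± 0.396 in astrocytes, 1.13 ± 0.33 in non-astrocytes and 1.01 ± 0.146 in bulk tissue (SD). Astrocytes exceeded bulk tissue (exact permutation p = 0.00952, adjusted p = 0.0171) and did not pass the test against non-astrocytes (exact permutation p = 0.0381, adjusted p = 0.0571). With the longest transcript in place of all exons the ratios were 3.69, 2.37 and 2.12. The Col4a2 to Col4a1 ratio was 0.841 ± 0.162 in astrocytes, 0.993 ± 0.0446 in non-astrocytes and 1.19 ± 0.0289 in bulk tissue, and both sorted fractions were below bulk tissue (exact permutation p = 0.00952, adjusted p = 0.0171 for astrocytes and exact permutation p = 0.0286, adjusted p = 0.0468 for non-astrocytes). Astrocytes and non-astrocytes did not pass the test (exact permutation p = 0.105, adjusted p = 0.135).

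Genes that act on collagens and laminins were followed in 3 lists. Of 25 genes that modify and process collagen, 8 were higher and 11 lower in astrocytes than in non-astrocytes, with a median log2 difference of -0.19, beside -0.08 for all genes tested. These are 32.0% and 44.0% of the list, near the 29.6% and 36.8% of all genes. P4ha3, a collagen prolyl hydroxylase subunit, was at 3302 ± 836 (SD, n = 6) in astrocytes against 103 ± 44.3 (SD, n = 4) in non-astrocytes and 393 ± 69.3 in bulk tissue. That is 33.0-fold higher than in non-astrocytes (log2 5.04, SE 0.179, adjusted p = 2.59e-12). P4ha2, a second such subunit, was higher by 2.48 on the log2 scale (SE 0.178). Lox and Loxl2, which cross-link collagen outside the cell, were lower, with log2 differences of -6.19 (SE 0.327) and -3.51 (SE 0.221). Of 10 basement membrane partners 9 were lower in astrocytes, with a median of -3.17, and Fbln1 was not called. Nid1, the nidogen that ties laminin to type IV collagen, was at 179 ± 72.9 in astrocytes and 18201 ± 4430.3 in non-astrocytes (log2 -6.70, SE 0.23, adjusted p = 2.06e-12). Nid2 differed by -3.62 and fibronectin, Fn1, by -6.26. Sparc, a collagen-binding protein, was at 23189.6 ± 5073 against 167369 ± 36112 (log2 -2.86, SE 0.185).

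Of 13 receptor genes tested, 4 were higher and 8 lower in astrocytes than in non-astrocytes, with a median of -1.28. The share higher, 30.8%, was near the 29.6% of all genes, and the share lower was 61.5%, beside 36.8%. Dag1, which encodes dystroglycan, a laminin receptor of astrocyte endfeet and muscle, was at 17523 ± 5609.6 in astrocytes, 5503 ± 1352 in non-astrocytes and 4305 ± 404 in bulk tissue (log2 1.64, SE 0.184, adjusted p = 1.21e-06 against non-astrocytes). The other 3 higher genes are named because of their values. The laminin-binding integrin subunits Itga6 and Itga7 were higher in astrocytes by 0.97 (SE 0.133) and 1.22 (SE 0.172), and Itga2, which binds collagen, by 0.74 (SE 0.313, adjusted p = 0.0482). The Itga2 call was lost in 12 alternatives, 8 of them with a library left out. Itga1, a collagen-binding integrin subunit of mural cells and others, was at 119 ± 54.9 in astrocytes and 7019 ± 701 in non-astrocytes (log2 -5.99, SE 0.272, adjusted p = 4.92e-11). Itga10, which binds collagen, differed by -3.43 on the log2 scale, and Bcam, a receptor for the Lama5 chain, by -2.78.

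Beside these differences stand the markers of the vascular cell types. The endothelial list fell with all 12 genes, to between 1.27% and 8.24% of the non-astrocyte mean, and all 10 mural genes fell, to between 0.710% and 35.8%. Of 10 fibroblast markers 8 fell, and 4 of the 10 were at 0 in at least 1 astrocyte library. Islr, at a mean of 269 in astrocytes against 243 in non-astrocytes, and Dpt, at 8.46 against 8.20, did not fall. The median gene of these lists kept 1.79%, 1.55% and 1.4% in astrocytes. Col3a1, Col28a1, Col15a1, Lama1, Col6a2, Col6a1, Lamc3 and Lamb1 kept between 0.551% and 1.34%, at or below these medians. Col4a1 and Col4a2 kept 4.08% and 3.39%, above the medians of all 3 lists and within the range of their genes. Lama2, Col9a3, Col11a2, Col5a3 and Col4a5 kept between 59.2% and 89.0%, above every endothelial and mural marker but below the fibroblast markers Islr and Dpt. The part of remaining vascular cells or of their RNA in the astrocyte values was not tested.

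Most of the family was higher in sorted non-astrocytes than in bulk tissue. Limma called 35 of 54 genes higher in non-astrocytes than in bulk tissue and 8 lower, where 30.5% of all genes tested were higher and 31.1% lower. The median log2 difference was 1.91, beside -0.04 for all genes. All 8 basement membrane collagens were higher, by 1.56 for Col4a4 to 3.76 for Col4a1, as were 7 of 10 fibrillar collagens, 8 of 11 laminin chains and 12 of 25 other collagens. Col5a2, Col3a1 and Lamc3 differed most, by 4.71 (SE 0.204), 4.63 (SE 0.411) and 4.60 (SE 0.231). In astrocytes, 15 genes were called higher and 27 lower than in bulk tissue, beside 28.8% and 36.1% of all genes tested. The share called higher, 27.8%, was thus close to that of all genes. The median was -0.57, beside -0.10 for all genes. Higher in astrocytes were Lama2, Col5a3, Col4a5, Col9a1 and Col10a1 by more than 2 on the log2 scale, at 2.46, 2.42, 2.42, 2.16 and 2.01. Col3a1, Col4a1, Col4a2, Col15a1, Col18a1, Lama1, Lama4, Lamb1 and Lamc3 were each called lower in astrocytes and higher in non-astrocytes than in bulk tissue. These comparisons share their bulk libraries, and bulk tissue was neither digested nor sorted, so fraction and handling cannot be told apart.

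The study set upper against deep layers in each fraction, and there few genes of the family were called. In astrocytes, limma called 0 of 54 genes between layers, where 0.0797% of all genes tested were called. At an unadjusted p below 0.05 stood 13 of the 54. The share of all genes at that unadjusted level is not given here. This count and the unadjusted counts below therefore do not set the family apart from other genes. EdgeR called 0 as well (0.0753% of all genes), and DESeq2 called Lama3 and Col5a2 higher and Col25a1 lower in upper layers (0.781% of all genes). Libraries of the same number in the labels were weakly correlated across the astrocyte layers, at 0.149 to 0.203 for deviations from group means. With the number as a block, limma called 5 genes (0.833% of all genes). Lama3, Lama4 and Lama1 were then higher in upper layer astrocytes, by 1.92 (SE 0.294, adjusted p = 0.0265), 1.21 (SE 0.191, adjusted p = 0.0295) and 1.39 (SE 0.254, adjusted p = 0.0439). Col1a1 and Col25a1 were lower, with log2 differences of -0.77 (SE 0.126, adjusted p = 0.0313) and -2.71 (SE 0.499, adjusted p = 0.0442). In single libraries, Lama3 did not overlap between the layers, from 48.6 to 125 in deep and from 161 to 409.8 in upper layers. Lama4 did overlap, since the deep layers reached 106 and the upper layers started at 102. Col1a1 did not overlap either, from 219.5 to 325 in deep and from 129.9 to 193 in upper layers. Lama1 and Col25a1 rest on values below 25, except for the deep layer library with Col25a1 at 61.0. The endothelial marker sum ran from 882 to 1232 in deep and from 1096 to 1495 in upper layer astrocytes. The fibroblast marker sum ran from 287 to 511 and from 417 to 575. Of the 12 endothelial markers 4 were at an unadjusted p below 0.05 between astrocyte layers (median log2 0.46), as were 6 of the 10 fibroblast markers (median log2 0.86), and none was called by limma. Their part in the layer values of Lama4 and Lama1 was not tested.

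In non-astrocytes, limma called 0 of 54 genes between layers (0.00443% of all genes), with 8 at an unadjusted p below 0.05. EdgeR called 0 (0.031% of all genes), and DESeq2 called Col1a1 and Col19a1 higher in upper layers (0.708% of all genes). Col1a1 was at 1048 and 1886 in deep and 2688 and 4243 in upper layer non-astrocytes (log2 1.26, SE 0.302, adjusted p = 0.311), so each upper layer library lay above both deep layer libraries. In astrocytes the upper layer values of Col1a1 were the lower ones. The difference between these layer differences, -2.04 (SE 0.39), was not called by limma (adjusted p = 0.266). In that comparison limma called 0 of 54 genes and 0.00443% of all genes. At an unadjusted p below 0.05 were 10 of the 54. EdgeR called 0 in that comparison (0.00443% of all genes) and DESeq2 called Col1a1 (0.32% of all genes). With the replicate number as a block within each fraction, limma called Col1a1 too (adjusted p = 0.0179, 0.0177% of all genes). The fibroblast marker sum ran from 5019 to 5181 in deep and from 5694 to 8074 in upper layer non-astrocytes. Its part in the Col1a1 values was not tested.

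In bulk tissue, Col6a1 was the gene of the family called between layers, with 0.297% of all genes tested called lower in upper layers. It was at 1484 and 1219 in deep and 228 and 131 in upper layers, 7.74-fold lower (log2 -2.95, SE 0.585, adjusted p = 0.037). In non-astrocytes its layers did not pass the test (log2 0.58, SE 0.585). The difference between these layer differences was -3.53 (SE 0.827, adjusted p = 0.36) and was not called by limma. In that comparison limma called 0 of 54 genes and 0.0576% of all genes. At an unadjusted p below 0.05 were 6 of the 54. EdgeR called Col6a1 there (0.093% of all genes), and DESeq2 called Col6a1, Col5a1 and Col12a1 (0.316% of all genes). The Col6a1 call between bulk layers held in 14 of 25 settings and was lost without any 1 of the 4 bulk or 4 non-astrocyte libraries. Of the 54 genes, 10 were at an unadjusted p below 0.05 between bulk layers. Some collagens had bulk layers that did not overlap without passing limma's test, in both directions. With 2 libraries a layer, a lack of overlap often arises by chance, and its share over all genes is not given here. The genes named next were each called by DESeq2 or in a fit of only the bulk libraries. Col24a1 was at 729.6 and 613 against 163 and 127 (log2 -2.21, SE 0.685, adjusted p = 0.259). Col12a1 was at 259.6 and 222 against 52.5 and 56.1 (log2 -2.12, SE 0.977, adjusted p = 0.68). Col5a1 was at 585 and 459 against 217 and 179 (log2 -1.39, SE 0.346, adjusted p = 0.112), and Col6a2 at 451 and 443 against 157 and 161 (log2 -1.49, SE 0.769, adjusted p = 0.78). In each of these the 2 deep layer libraries lay above both upper layer libraries. In the opposite direction, Col8a1 was at 121 and 164 in deep against 263 and 349 in upper layers (log2 1.10, SE 0.368, adjusted p = 0.332). Col26a1 was at 235 and 276 against 454 and 457 (log2 0.84, SE 0.362, adjusted p = 0.613), and Col19a1, whose values are given above, had a log2 difference of 0.56 (SE 0.411). DESeq2 called the 4 with lower values and Col6a1 (1.19% of all genes lower) and edgeR called Col6a1 (0.492% of all genes lower). Oligodendrocyte markers also differed between bulk layers, with sums of 130038 to 153094 in deep and 39114 to 42841 in upper layers. In non-astrocytes these sums were 116581 to 153813 in deep and 55280 to 62603 in upper layers, where Col6a1 had the log2 difference of 0.58 given above. The part of oligodendrocytes in these collagen values was not tested.

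Col5a2 was called for a layer difference in bulk tissue that was not that of astrocytes. It was at 34.1 and 38.8 in deep and 18.4 and 14.0 in upper layer bulk tissue, and at 34.2, 35.5 and 31.7 in deep and 79.2, 66.5 and 69.4 in upper layer astrocytes. Bulk tissue was lower and astrocytes were higher in upper layers, without overlap in either. Neither layer difference passed alone (log2 -1.13, adjusted p = 0.127, and log2 1.06, adjusted p = 0.142). Their difference was -2.19 (SE 0.372, adjusted p = 0.0334), where 0.0797% of all genes tested were called lower, and it held in 13 of 24 settings. It was lost without any 1 bulk or any 1 upper layer astrocyte library, and also without either deep layer non-astrocyte library or the first or the third deep layer astrocyte library. Of the 3 lists of related genes, none of 48 genes tested was called by limma, edgeR or DESeq2 between layers of astrocytes, non-astrocytes or bulk tissue. At an unadjusted p below 0.05, limma had 8 of them in astrocytes, 3 in non-astrocytes and 2 in bulk tissue. With the number as a block, Dag1 was called higher in upper layer astrocytes (log2 0.57, adjusted p = 0.0442).

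**Figure D5:**
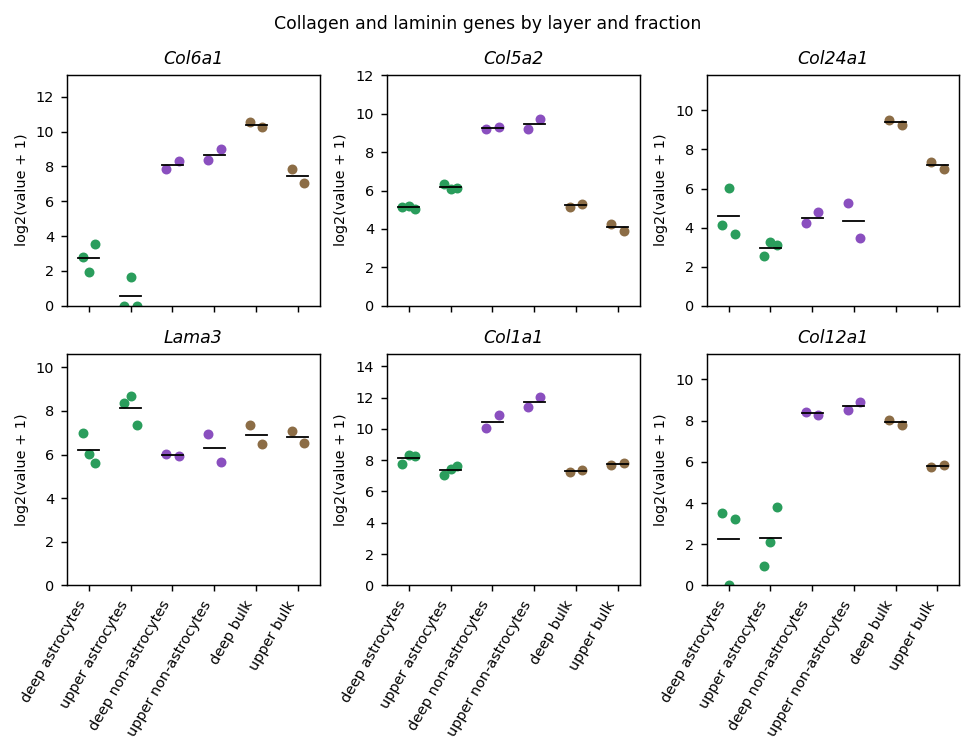
Log2(normalised read count + 1) of 6 collagen and laminin genes by layer and fraction, with a point for each library and a line at the group mean. Col6a1, Col24a1 and Col12a1 are lower in upper than in deep layer bulk tissue, Lama3 is higher in upper than in deep layer astrocytes, and Col1a1 is lower in upper layer astrocytes and higher in upper layer non-astrocytes than in the deep layers.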

How the data were processed

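RNA was measured in 14 libraries. Per the labels, cells were sorted by GFP after papain digestion with DAPI exclusion, and libraries were made from total RNA with a single primer amplification kit. The submitters' processing notes name CASAVA, TopHat2 2.0.11, HTSeq 0.6.1p1, DESeq2 and GRCm38, with no DESeq2 version, and counting by strand is not given in the sources used here. The authors deposited a signal value per gene, which is the count of reads in the gene divided by a size factor of the library (0.705 to 1.30). Multiplied by that factor, 100% of values came out whole within 1e-06, so reads per library are known and edgeR and DESeq2 could be run as alternatives.

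Values were tested with limma 3.58.1 (R 4.3.3, intensity trend, robust moderation) on log2(value + 1). A single model of 6 group means held all 14 libraries and the 22575 genes with a value of at least 10 in at least 2 libraries. Fold changes on this scale understate the change of low genes. P-values were Benjamini-Hochberg adjusted over all genes tested, and 0.05 was the threshold. Because the values were not raw counts, limma and not edgeR was the main test. Fractions were compared with equal weight on both layers. The code was tested on simulated data. Of genes given a 2-fold change there, 40% were called between astrocyte layers and 20% between bulk layers. For 4-fold changes these were 77% and 64%. Few calls between layers thus do not mean small differences. Levels per kilobase used the union of GENCODE M21 exons, and shares and ratios of chains were compared with two-sided exact permutation tests over libraries, which were added after the values had been seen. Not every share and ratio computed was tested, and the adjustment covers only those tested. Alternatives were edgeR 4.0.16 and DESeq2 1.42.0 on the recovered reads, TMM scaling, pseudocounts of 0.1 and 5, no filter or a minimum of 50, no trend or robust moderation, a replicate block, each library left out and only the libraries compared. Shares of all genes for DESeq2 are over genes to which it gave an adjusted p. For the replicate block, numbers in the titles were taken to pair the 2 layers of astrocytes. This rested on correlations of deviations from group means, at 0.149 to 0.203 over the 3 pairs of like number. The others were at -0.125 to -0.0663. Deviations within a group cancel out, so these negative values are not separate evidence. Libraries of like number from different fractions were at -0.0141 to 0.187 over 24 pairs, a range that overlaps that of the astrocyte pairs.

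Values in every library are given for the 4 genes of each class with the highest group mean, for genes called between layers, for those higher in astrocytes than in non-astrocytes with a group mean of at least 50 in astrocytes, and for the 2 of each class with the smallest p in each comparison between fractions. Of other lists, up to 4 genes with the smallest p between astrocytes and non-astrocytes are named. The genes, lists and tests were chosen with earlier results of these data known. The counts of genes include 1 laminin gene that is not reported here by itself. Exons of 16 of the 55 genes overlap another annotated gene, among them Col4a1, Col4a2, Col3a1, Col10a1, Col15a1, Lama2, Lama3, Lamc3 and Col9a3. Part of their reads may thus be missing or may belong to the overlapping gene.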

Additional observations from a re-analysis of the deposited data

Results flagged for a closer look

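Col5a2, a chain of type V collagen, was the gene of the family whose layer difference was not the same in 2 fractions by limma's test of the difference itself. In bulk tissue the upper layers were below the deep layers and in astrocytes above them, and the difference between these layer differences was -2.19 on the log2 scale (SE 0.372, adjusted p = 0.0334). Both deep layer bulk libraries lay above both upper layer ones, and all 3 upper layer astrocyte libraries lay above all 3 deep layer ones. The values are low, at most 79.2 in astrocytes and 38.8 in bulk tissue.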

How the results depend on the processing

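Of 127 calls of collagen and laminin genes between fractions, 113 held in every alternative run. The other 14 were lost in at least 1, among them Col5a3, Col6a6, Col9a1 and Lama3 between astrocytes and non-astrocytes and Col12a1, Col6a5 and Col22a1 between non-astrocytes and bulk tissue. No called result turned its direction. The 8 genes lower in non-astrocytes than in bulk tissue were 5 with a pseudocount of 0.1 and 4 with a filter at 50, where fewer genes were tested. Leaving out a library gave 0 to 3 genes higher and 38 to 41 lower in astrocytes than in non-astrocytes, 13 to 16 higher and 26 to 27 lower than in bulk tissue, and 32 to 37 higher and 6 to 10 lower in non-astrocytes than in bulk tissue. Without the second upper layer non-astrocyte library the genes higher in astrocytes went from 2 to 0, and without the third astrocyte library of either layer or the second deep layer non-astrocyte library to 1. Groups of 2 then kept a lone library, which was assumed to vary like the others.

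Between layers, the counts moved with the tool. DESeq2 gave 2 genes higher and 1 lower in upper layer astrocytes, 2 higher in upper layer non-astrocytes and 5 lower in upper layer bulk tissue. A fit of only the bulk libraries gave 3 higher (Col8a1, Col19a1 and Col26a1) and 5 lower. The share of all genes called in that bulk fit is not given here, so its counts do not set the family apart. A pseudocount of 0.1 and a fit without trend or robust moderation left 0 genes in bulk tissue. Leaving out a library gave 0 to 1 lower in bulk tissue, 0 to 1 lower in astrocytes (Col6a1, without the second library of either layer) and 0 to 1 for bulk tissue against astrocytes. For bulk tissue against non-astrocytes, edgeR gave 1 lower, DESeq2 3 and a pseudocount of 5 gave 1. For astrocytes against non-astrocytes DESeq2 gave 1 lower. The cause was not tested.

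The replicate block within a fraction gave 3 genes higher and 2 lower in upper layer astrocytes and 1 higher in upper layer non-astrocytes (Col1a1, adjusted p = 0.0228 with limma). It gave 1 higher for bulk tissue against astrocytes and 1 lower for astrocytes against non-astrocytes, both Col1a1, and in bulk tissue it called Col5a1 and no longer Col6a1 (adjusted p = 0.0600 with limma). Shares of all genes called with this block are given above only for astrocytes and for astrocytes against non-astrocytes. Outside astrocytes the pairing by number was not taken as given. With 2 libraries a group the deviations mirror each other, so the 2 pairs of a fraction hold a single value. That correlation of like-numbered libraries was 0.436 in non-astrocytes and 0.0937 in bulk tissue, and it cannot settle the pairing. Between fractions, the block over all libraries lost the calls of Col5a3 between astrocytes and non-astrocytes, of Col23a1 between astrocytes and bulk tissue and of Col6a5 between non-astrocytes and bulk tissue.

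With the longest transcript as length, Lama4 was 58.9% of alpha chains in non-astrocytes and 54.3% in bulk tissue, and Lamb2 was 95.1%, 42.9% and 47.8% of beta chains in astrocytes, non-astrocytes and bulk tissue. The Col1a2 to Col1a1 ratio was 3.69, 2.37 and 2.12 in the 3 fractions, and the Col4a2 to Col4a1 ratio was 0.903 in non-astrocytes and 1.08 in bulk tissue. Depth limits the low genes, and several genes rest on fewer than 50 reads in each astrocyte library. Among them are Col3a1, Col12a1, Col15a1, Col18a1, Col28a1, Col6a1, Col6a2, Col6a3, Lama1 and Lamc3, so their low percentages of the non-astrocyte mean are imprecise.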
